A study of Homo sapiens with 6 samples.

Results

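The genes described here are 45 chromatin remodelers and histone or DNA modifiers, taken by gene symbol from the 60780 rows of the deposited expression table. They were measured in LX-2 cells, a human line of hepatic stellate cells, the collagen-producing cells of the liver sinusoid. All cells were grown in DMEM with fetal bovine serum and then kept for 24 h in medium conditioned by HCT116 cells, a human colorectal carcinoma line. The conditioning cells carried an empty vector (Vector-CM, n = 3) or overexpressed FGFBP1, a secreted protein that frees fibroblast growth factors from the extracellular matrix (FGFBP1-CM, n = 3), and the comparison of the media asks how tumor-derived FGFBP1 acts on stellate cells. LX-2 is a single line, and nothing in the labels says that the 3 libraries of a group came from separate cultures, so p-values measure only the spread between these libraries. The list groups genes by function and uses no threshold on their values, but it was drawn up with earlier results of these data known. Of the 45 genes, 44 had enough reads to be tested.

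Chromatin regulators set how tightly DNA is packed and which proteins can read it. Remodelers use ATP to slide or evict nucleosomes, and those on the list belong to the CHD, BAF/PBAF, ISWI and ATRX families, beside EP400. Writers and erasers place or remove methyl and acetyl groups on histone tails or methyl groups on cytosine, and Polycomb proteins keep silenced genes silent. In stellate cells, DNA methylation, EZH2 and histone deacetylases are known for their part in the switch from the quiescent to the activated state.

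Each library held between 14003780 counts (Vector-CM replicate 2) and 18508113 counts (FGFBP1-CM replicate 1), and the 45 genes together took 0.497% to 0.573% of them. All 10 stellate or fibroblast markers had at least 10 counts in every library, with summed levels of 3525 to 3803 CPM (reads of a gene relative to the scaled library total) with Vector-CM and 2731 to 3272 CPM with FGFBP1-CM. Of 10 colorectal epithelial markers only CDH17 reached 10 counts in every library and CEACAM5 was at 0, with sums of 4.20 to 6.06 CPM against 3.75 to 4.90 CPM. Of 10 hepatocyte markers only SERPINA1 reached 10 counts in every library. The hepatocyte sum was 38.5 to 39.6 CPM with Vector-CM and 17.8 to 27.3 CPM with FGFBP1-CM, the endothelial sum (5 genes) 14.1 to 16.2 against 12.7 to 15.6 CPM, and the leukocyte sum (5 genes) 1.66 to 2.46 against 1.41 to 2.26 CPM. The part of these differences in the results that follow was not tested. LX-2 is a single line, so these sums need not stand for cells of other kinds. In bulk RNA, fewer cells with a transcript and less of it per cell cannot be told apart.

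RefSeq promoter windows (GRCh38.p14, from 250 bases before to 50 bases after the start) matched 39 of the 45 genes. These windows were GC rich, with a median GC content of 69.3% against 58.3% over all 27305 windows, and a median observed-to-expected CpG ratio of 0.874 against 0.58. A GC box (GGGCGG) was found in 29 of 39 windows (74.4%, against 44.6% of all windows), whereas the TATA box (TATAAA) was found in 0 of 39 (12% of all windows). The CCAAT box (CCAAT) was found in 25.6% against 35.7%, the ETS motif (CCGGAAG) in 17.9% against 10.7% and the E2F motif (TTTCCCGC) in 2.56% against 1.66%. The EGR1 motif (GCGTGGGCG) and the cAMP response element (TGACGTCA) were found in 0 of 39 windows, against 0.784% and 1.98% of all windows, and every motif was searched on both strands. These are letter matches in a fixed window and say nothing of a factor's binding. The 3 windows printed here are those of SMARCA5 and ASXL2, whose p-values were among the 3 lowest of the tested genes, and of EZH2, which had the lowest log2 fold change. Capitals mark GC boxes in SMARCA5 (chr4:143513452-143513751, plus strand). In ASXL2 (chr2:25878438-25878737, minus strand) they mark an ETS motif, a GC box that shares a base with it, and a CCAAT box. In EZH2 (chr7:148884242-148884541, minus strand) they mark 4 GC boxes, a pair of which overlap, and 4 CCAAT boxes, 3 of them on the reverse strand as ATTGG.
SMARCA5: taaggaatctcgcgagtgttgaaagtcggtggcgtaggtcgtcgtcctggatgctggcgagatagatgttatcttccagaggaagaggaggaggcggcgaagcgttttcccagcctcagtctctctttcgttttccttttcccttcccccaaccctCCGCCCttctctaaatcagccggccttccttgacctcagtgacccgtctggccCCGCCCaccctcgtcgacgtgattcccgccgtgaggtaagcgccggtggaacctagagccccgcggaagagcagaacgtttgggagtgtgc
ASXL2: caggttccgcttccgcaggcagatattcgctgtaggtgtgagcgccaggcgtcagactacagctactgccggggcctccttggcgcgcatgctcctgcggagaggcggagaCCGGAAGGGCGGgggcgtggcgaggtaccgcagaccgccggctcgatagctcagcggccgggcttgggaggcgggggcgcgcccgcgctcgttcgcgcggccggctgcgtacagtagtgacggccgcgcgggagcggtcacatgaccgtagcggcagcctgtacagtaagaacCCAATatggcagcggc
EZH2: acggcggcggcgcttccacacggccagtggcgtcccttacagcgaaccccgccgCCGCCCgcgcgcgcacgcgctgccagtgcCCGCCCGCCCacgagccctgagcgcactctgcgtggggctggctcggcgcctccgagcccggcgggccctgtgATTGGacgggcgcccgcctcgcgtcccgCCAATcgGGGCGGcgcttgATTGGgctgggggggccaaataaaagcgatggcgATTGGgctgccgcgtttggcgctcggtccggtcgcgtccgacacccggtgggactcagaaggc

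Levels between genes were compared as FPKM, the deposited read level per length and library size. Of the 45 genes, 16 had a mean of at least 10 FPKM over the 6 libraries, 28 had a mean of 1 to 10 FPKM and 1, ATRX, lay under 1 FPKM, and the median of the means was 7.54 FPKM. The highest mean levels were those of SUZ12, a core subunit of Polycomb repressive complex 2 (27.2 ± 2.04 FPKM, SD over 6 libraries), and HDAC1, a class I deacetylase (26.5 ± 1.16 FPKM). Their order turned with the group, since HDAC1 was the higher in all 3 Vector-CM libraries and SUZ12 in all 3 FGFBP1-CM libraries. NIPBL (18.6 ± 2.67 FPKM), which loads cohesin onto DNA, and ASXL1 (17.9 ± 0.701 FPKM), a scaffold of the BAP1 deubiquitinase, also overlapped within their spread. At the other end, BAZ2B (1.06 ± 0.180 FPKM), TET2 (1.16 ± 0.188 FPKM) and CHD4 (1.17 ± 0.0739 FPKM) could not be ordered. The plot of levels by library shows that the differences between genes were far wider than those between libraries of a gene.

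SUZ12 was at 27.3, 24.6 and 24.9 FPKM with Vector-CM and at 28.5, 28.0 and 29.8 FPKM with FGFBP1-CM, so that all 3 FGFBP1-CM libraries lay above all 3 Vector-CM libraries. ATRX, the remodeler that places histone H3.3 at telomeres and pericentric heterochromatin together with DAXX, had 4, 7 and 5 counts with Vector-CM and 7, 7 and 8 counts with FGFBP1-CM. In CPM these were 0.223 to 0.506 and 0.369 to 0.489, a little above the level of 3 counts in a library (0.158 to 0.217 CPM), and the groups overlapped. No exon of ATRX (chrX:77504878-77786233 in GENCODE 29, minus strand) overlaps another gene there, and it was left out of the tests as too low. Whether so few reads reflect the level of ATRX in LX-2 cells or the annotation used for counting was not tested. Each of the 44 tested genes had at least 208 counts in every library. The level of CHD4, the ATPase of the NuRD complex, is uncertain. Of its exon bases, 53.5% overlap other annotated genes, the most with AC006064.6 on the same strand. AC006064.6 had 0 to 1 counts in each library, and how reads in the shared bases were counted was not tested. The FPKM of KDM6A, KMT2C, EZH2 and DNMT1 used gene lengths 3.89, 2.65, 2.38 and 1.57 times those of GENCODE 29 and may be understated to that extent.

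**Figure D1:**
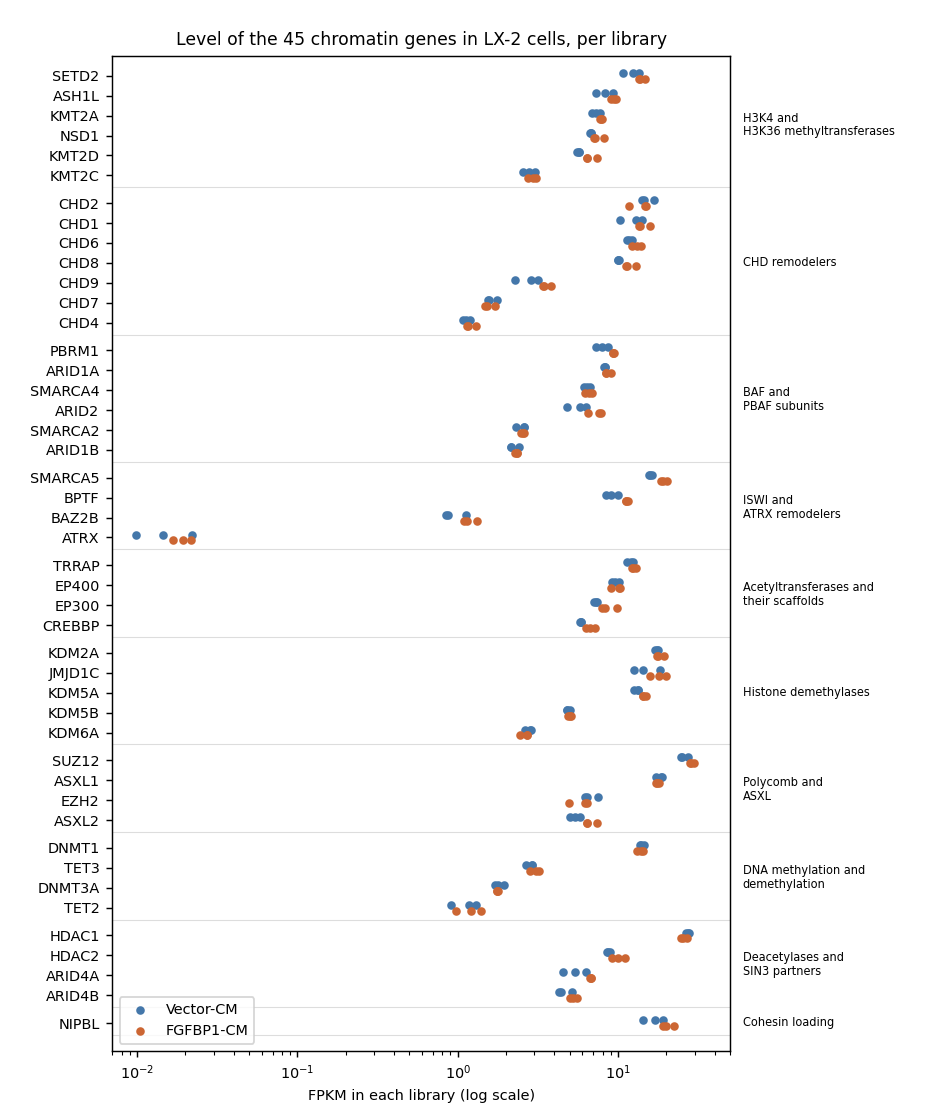
FPKM of the 45 genes in each of the 6 libraries, on a log axis, grouped by role; blue points are Vector-CM and orange points FGFBP1-CM libraries. ATRX stands alone near 0.0173 FPKM, while the other 44 genes lie between 1.06 (BAZ2B) and 27.2 FPKM (SUZ12) on average.

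Of the 44 tested genes, 34 had a higher estimate after FGFBP1-CM than after Vector-CM, by amounts that did not pass the test for any gene. None of the 44 tested genes passed an adjusted p of 0.05 in the quasi-likelihood test of edgeR, where 0.120% of the 16707 genes tested did (20 genes, 0.0539% higher and 0.0658% lower). At an unadjusted p under 0.05 in edgeR, 14 of the 44 were higher (31.8%, against 11.1% of all genes) and 1 was lower (2.27%, against 10.7%). The log2 fold change was above 0 in 77.3% of the 44 (against 50.7% of all genes), with a median of 0.12 against 0.0032 over all genes and a range from -0.23 (EZH2) to 0.33 (ARID2). The groups did not overlap in CPM for 15 genes that were higher (34.1%, against 12.8%) and 2 that were lower (4.55%, against 13.2%), HDAC1 and DNMT1. The SE of a log2 fold change ran from 0.059 to 0.147, with a median of 0.0717, and 15 of the 44 changes were under 1 SE, 22 were 1 to 3 SE and 7 were over 3 SE.

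Both the count and the median moved with the processing. With the Wald test of DESeq2, 4 genes were higher at an adjusted p under 0.05 (BPTF, SMARCA5, ARID2 and ASXL2), where 2.00% of all genes were higher and 1.69% lower. With no filter beyond 1 count, 8 were higher (the same 4 with CHD9, NIPBL, ARID4A and JMJD1C), against 2.19% of all genes (1.44% lower), and without FGFBP1-CM replicate 2, 2 were higher (ARID2 and SMARCA5), against 2.39% (2.77% lower). After the loess correction for GC content and length none passed (0.365% of all genes were higher and 0.407% lower), 10 were higher and 4 lower at an unadjusted edgeR p (9.41% and 11.8% of all genes), and the median was 0.06 against -0.0118 over all genes. Without Vector-CM replicate 2 none passed either (0.00582% of all genes were higher and 0.0175% lower), 8 were higher and 1 lower at an unadjusted p (8.18% and 8.10% of all genes), and the median was 0.07.

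**Figure D2:**
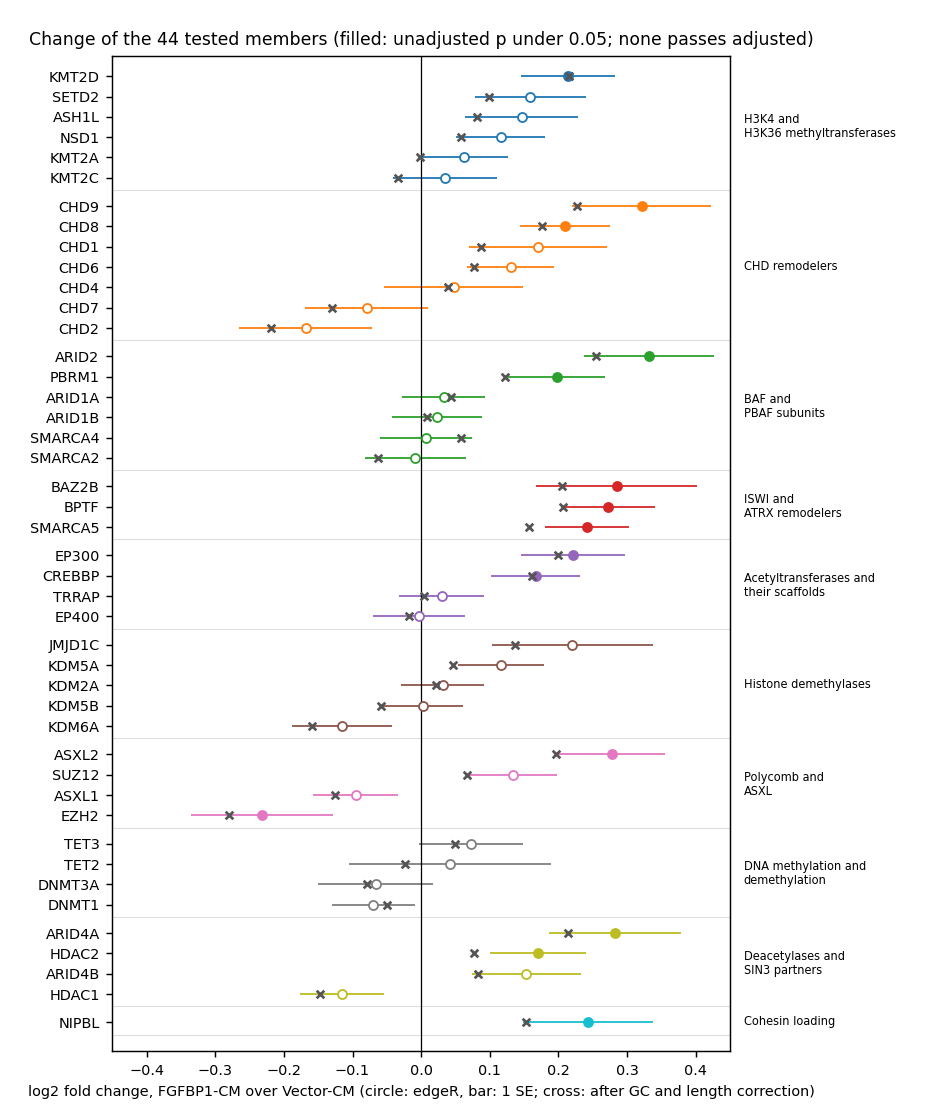
Log2 fold change, FGFBP1-CM over Vector-CM, of the 44 tested genes by role; circles and bars give the edgeR estimate with 1 SE, filled where the unadjusted p is under 0.05, and crosses give the value after correction for GC content and length. Of the 44 circles, 34 lie above 0, and 40 crosses lie to the left of their circle.

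All 3 tested genes of the ISWI group of remodelers were higher at an unadjusted edgeR p, with a median log2 fold change of 0.27 (0.20 after GC and length correction). The 6 further genes of the ISWI and ATRX group include DAXX, a partner of ATRX (-0.03 ± 0.07). Their median was lower, at 0.09, with 3 higher and 1 lower at an unadjusted edgeR p (11.1% and 10.7% of all genes). The lower gene was BAZ2A, a bromodomain protein of the NoRC complex (-0.15 ± 0.06, groups lower without overlap). The groups of genes were not tested against each other. BPTF, the largest subunit of the NURF complex and a reader of methylated H3K4 (chr17:67825524-67984378, plus strand), was at 151, 129 and 140 CPM with Vector-CM and at 170, 170 and 168 CPM with FGFBP1-CM. These groups did not overlap, and the log2 fold change was 0.27 ± 0.07 (SE, edgeR adjusted p = 0.0727, the lowest of the 44 genes). Over 16 alternatives its adjusted p ranged from 0.00716 to 0.261.

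SMARCA5, the ISWI ATPase itself (chr4:143513463-143557486, plus strand), was at 130, 128 and 136 CPM with Vector-CM and at 161, 151 and 154 CPM with FGFBP1-CM. Every FGFBP1-CM library was above every Vector-CM library, by 0.24 ± 0.06 on the log2 scale (edgeR adjusted p = 0.0738, from 0.0242 to 0.250 over the alternatives). Of its exon bases, 13.5% overlap SMARCA5-AS1 on the opposite strand, and reads of both genes cannot be told apart without strand. BAZ2B, a bromodomain partner of ISWI, was at 22.9, 17.2 and 18 CPM and at 22.5, 22.3 and 26.4 CPM, with overlapping groups. Its log2 fold change was 0.29 ± 0.12 (edgeR adjusted p = 0.184). Over the 16 alternatives this log2 fold change ran from 0.17 to 0.43 (the latter without Vector-CM replicate 1), and 0 of them passed.

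In the BAF and PBAF complexes, which contain the SWI/SNF ATPases SMARCA2 and SMARCA4, the values differed between subunits. ARID2, a subunit found in PBAF and not in BAF (chr12:45729665-45908040, plus strand), had the highest log2 fold change of the 44 genes. It was at 76.5, 59.0 and 71.9 CPM with Vector-CM and at 92.3, 78.2 and 90.8 CPM with FGFBP1-CM, with no overlap and a log2 fold change of 0.33 ± 0.10 (25.9% higher, edgeR adjusted p = 0.0910, from 0.00146 to 0.261 over the alternatives). PBRM1, the other PBAF-specific member of the list, was at 84.0, 71.2 and 78.6 CPM against 89.2, 89.8 and 89.2 CPM, a log2 fold change of 0.20 ± 0.07 (edgeR adjusted p = 0.140). The genes on the list that are not specific to PBAF had log2 fold changes near 0, namely 0.03 ± 0.06 for ARID1A, 0.02 ± 0.07 for ARID1B, 0.01 ± 0.07 for SMARCA4 and -0.01 ± 0.07 for SMARCA2. The other PBAF-specific subunits did not follow ARID2 and PBRM1, with 0.01 ± 0.07 for BRD7 and -0.10 ± 0.07 for PHF10 (-0.04 and -0.17 after GC and length correction). The difference between PBAF-specific and other subunits was not tested.

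The CHD family lay on both sides of 0. In sign, 5 of 7 were higher (71.4%, against 77.3% of the 44 genes and 50.7% of all genes). At an unadjusted edgeR p, 2 were higher and 0 lower (28.6% higher, against 11.1% of all genes). CHD8, which binds beta-catenin target genes, was at 211, 211 and 217 CPM with Vector-CM and at 265, 240 and 234 CPM with FGFBP1-CM, without overlap (log2 fold change 0.21 ± 0.07, edgeR adjusted p = 0.105). CHD9 was at 52.5, 38.3 and 48.6 CPM against 55.7, 56.4 and 62.8 CPM, also without overlap (0.32 ± 0.10, adjusted p = 0.107). In CHD9 the lowest library was Vector-CM replicate 2, and without it the log2 fold change was 0.20. CHD2, a remodeler of active genes, was at 284, 241 and 253 CPM against 193, 253 and 247 CPM, a log2 fold change of -0.17 ± 0.10 (edgeR adjusted p = 0.333). It was -0.05 when the lowest library, FGFBP1-CM replicate 1, was left out, -0.10 without Vector-CM replicate 1 and -0.24 without FGFBP1-CM replicate 2. The GC and length correction gave -0.22 for CHD2, which was then lower at an unadjusted edgeR p (adjusted p = 0.192). CHD1 (0.17 ± 0.10), CHD6 (0.13 ± 0.06), CHD4 (0.05 ± 0.10) and CHD7 (-0.08 ± 0.09) had overlapping groups.

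The 6 listed methyltransferases of H3K4 and H3K36 were all higher in sign (against 50.7% of all genes), with a median log2 fold change of 0.13. At an unadjusted edgeR p, 1 of the 6 was higher (16.7%, against 11.1% of all genes). The 11 further genes of this role lay on both sides of 0, with 7 higher and 4 lower in sign and a median of 0.03. At an unadjusted edgeR p, 3 of these 11 were higher and 1 was lower. KMT2D, an H3K4 monomethyltransferase of enhancers, was at 142, 147 and 149 CPM with Vector-CM and at 184, 162 and 161 CPM with FGFBP1-CM. The groups did not overlap, FGFBP1-CM replicate 1 was the highest library, and the log2 fold change was 0.21 ± 0.07 (edgeR adjusted p = 0.111). NSD1, which writes H3K36me2, was also higher without overlap (106 ± 0.0730 CPM against 115 ± 7.2 CPM, SD, n = 3 each) and had a log2 fold change of 0.12 ± 0.07. SETD2, which writes H3K36me3 (0.16 ± 0.08), ASH1L (0.15 ± 0.08), KMT2A (0.06 ± 0.06) and KMT2C (0.04 ± 0.08) had overlapping groups, and the values of KMT2A and KMT2C were below 0 after GC and length correction.

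Among acetyltransferases and their scaffolds, the paralogs EP300 and CREBBP, which acetylate H3K27 at enhancers, were both higher at an unadjusted edgeR p. EP300 was at 85.7, 87.7 and 85.1 CPM with Vector-CM and at 112, 96.7 and 92.4 CPM with FGFBP1-CM (log2 fold change 0.22 ± 0.08, edgeR adjusted p = 0.128). Its log2 fold change was 0.14 without FGFBP1-CM replicate 1. CREBBP was at 92.2 ± 1.55 CPM and at 103 ± 5.89 CPM (SD, n = 3 each, log2 fold change 0.17 ± 0.07, adjusted p = 0.167), again without overlap. The scaffold TRRAP (0.03 ± 0.06) and the remodeler EP400 (-0.003 ± 0.07), which share the TIP60 complex, had overlapping groups and values near 0.

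None of the 5 histone demethylases on the list reached an unadjusted edgeR p of 0.05, but KDM6A did after GC and length correction (log2 fold change -0.16, edgeR adjusted p = 0.215). KDM5A, an H3K4 demethylase, was higher without overlap (160 ± 6.56 CPM against 173 ± 4.95 CPM, log2 fold change 0.12 ± 0.06), whereas its paralog KDM5B had 0.003 ± 0.06. JMJD1C had a larger log2 fold change with a wider error (0.22 ± 0.12), which was 0.11 without Vector-CM replicate 2 and 0.38 without Vector-CM replicate 1, KDM2A had 0.03 ± 0.06, and KDM6A, the H3K27 demethylase UTX, had -0.12 ± 0.07 (-0.05 without FGFBP1-CM replicate 1). KDM6A, an eraser of H3K27 methylation, and EZH2, a writer of it, both had negative values with overlapping groups. Both values were smaller in size without FGFBP1-CM replicate 1.

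The Polycomb and ASXL genes lay on both sides of 0. EZH2, the catalytic subunit of Polycomb repressive complex 2 (chr7:148807383-148884321, minus strand), was at 81.7, 67.4 and 70.7 CPM with Vector-CM and at 52.0, 67.0 and 68.6 CPM with FGFBP1-CM. Its log2 fold change of -0.23 ± 0.10 was the lowest of the 44 and the only negative one at an unadjusted edgeR p (0.0422, adjusted p = 0.211), but the groups overlapped. The value was -0.11 without the lowest library, FGFBP1-CM replicate 1, and -0.14 without Vector-CM replicate 1, whereas the GC and length correction gave -0.28 (edgeR adjusted p = 0.141). With that correction EZH2 was 1 of 4 genes lower at an unadjusted p, beside CHD2, HDAC1 and KDM6A. SUZ12, which is in the same complex, had 0.13 ± 0.06. ASXL2 (chr2:25733753-25878516, minus strand) was at 71.7, 67.7 and 78.6 CPM and at 95.3, 84.8 and 84.0 CPM, without overlap and 0.28 ± 0.08 higher on the log2 scale (edgeR adjusted p = 0.0847, from 0.0122 to 0.243 over the alternatives), whereas its paralog ASXL1 had -0.10 ± 0.06.

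The 4 listed genes of DNA methylation and demethylation had values close to 0, unlike DNMT3B, which is among the further genes described last. The maintenance methyltransferase DNMT1 was at 225, 217 and 217 CPM with Vector-CM and at 215, 213 and 200 CPM with FGFBP1-CM, lower without overlap, but with a log2 fold change of only -0.07 ± 0.06 (edgeR adjusted p = 0.533). The de novo methyltransferase DNMT3A had -0.07 ± 0.08, and the methylcytosine dioxygenases TET2 and TET3 had 0.04 ± 0.15 and 0.07 ± 0.08. None of the 4 reached an unadjusted edgeR p of 0.05.

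Among deacetylases and their SIN3 partners, HDAC1 and HDAC2, paralogs that share the SIN3, NuRD and CoREST complexes, lay on opposite sides of 0. HDAC1 was at 111, 109 and 108 CPM with Vector-CM and at 104, 102 and 97.2 CPM with FGFBP1-CM, lower without overlap (log2 fold change -0.12 ± 0.06, edgeR adjusted p = 0.290). HDAC2 was at 132, 134 and 140 CPM and at 165, 140 and 152 CPM, higher without overlap (0.17 ± 0.07, adjusted p = 0.184). Its log2 fold change was 0.11 without FGFBP1-CM replicate 1. ARID4A, an RB-binding subunit of SIN3, was at 47, 34.4 and 40.9 CPM against 48.9, 50.5 and 49.9 CPM (0.28 ± 0.10, adjusted p = 0.126). Its log2 fold change was 0.18 without Vector-CM replicate 2, and ARID4B had 0.15 ± 0.08. NIPBL was at 214 ± 29.4 CPM and 253 ± 22 CPM (0.24 ± 0.09, adjusted p = 0.165), with overlapping groups, and its log2 fold change was 0.14 without Vector-CM replicate 2.

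A ratio of 2 genes within a library does not depend on the scaling of that library, and 8 pairs of paralogs or alternative subunits were compared as FPKM ratios. In 3 pairs every FGFBP1-CM library was below every Vector-CM library, and no share over other pairs of genes was taken. HDAC1 over HDAC2 was 3.24, 3.15 and 3.00 with Vector-CM and 2.44, 2.80 and 2.48 with FGFBP1-CM, a log2 difference of -0.28 (-0.22 after GC and length correction). HDAC1 was lower and HDAC2 higher, each without overlap in CPM, so the separation of this ratio follows from those values. ASXL1 over ASXL2 was 3.50, 3.69 and 3.00 against 2.33, 2.80 and 2.73, a log2 difference of -0.37 (-0.32 corrected). ARID4B over ARID4A was 0.821, 0.937 and 0.825 against 0.777, 0.744 and 0.821, where the nearest libraries almost touched (log2 difference -0.14, corrected -0.13). In CPM, ASXL2 and ARID4A were each higher without overlap, while the groups overlapped for ASXL1 and ARID4B. These ratios therefore reuse the values of ASXL2 and ARID4A.

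The other 5 pairs overlapped. SMARCA4 over SMARCA2 was 2.36, 2.90 and 2.47 against 2.78, 2.60 and 2.39, and ARID1A over ARID1B was 3.39, 3.86 and 3.86 against 4, 3.6 and 3.56. EP300 over CREBBP was 1.25, 1.25 and 1.21 against 1.36, 1.23 and 1.26, and KMT2D over KMT2C was 1.84, 2.25 and 2.07 against 2.71, 2.18 and 2.09. TET3 over TET2 was 2.25, 2.97 and 2.47 against 3.30, 2.34 and 2.22. With 3 libraries against 3 an exact two-sided permutation test cannot go below p = 0.1, and no test was made of the ratios.

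**Figure D3:**
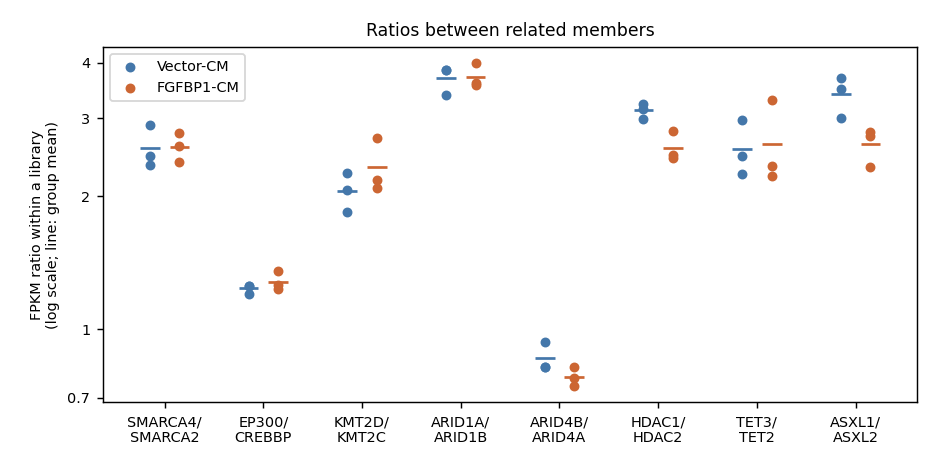
FPKM ratio of 8 pairs of related chromatin genes within each library, on a log axis; points are libraries (blue Vector-CM, orange FGFBP1-CM) and lines are group means. The mean ratio went from 3.13 to 2.58 for HDAC1 over HDAC2 and from 3.40 to 2.62 for ASXL1 over ASXL2, with no overlap between the groups.

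The 44 tested genes are long and AT rich, and their values moved with GC content from library to library. Their longest transcripts had a median GC content of 44.7% and a median length of 9432 bp, against 47.7% and 3231 bp over all genes with a value. Across the 44 genes, Spearman's rho of log2 fold change with GC content was -0.50 (-0.33 after the correction), against -0.206 over 16401 tested genes (-0.017 after it). These are correlations across genes measured in the same 6 libraries, which are not independent. The 22 genes with the lower GC content had a median log2 fold change of 0.17 (0.09 corrected), with 10 higher and 1 lower at an unadjusted edgeR p. The 22 with the higher GC content had 0.03 (0.01 corrected), with 4 higher and 0 lower. At the same p, 11.1% of all genes tested were higher and 10.7% lower.

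**Figure D4:**
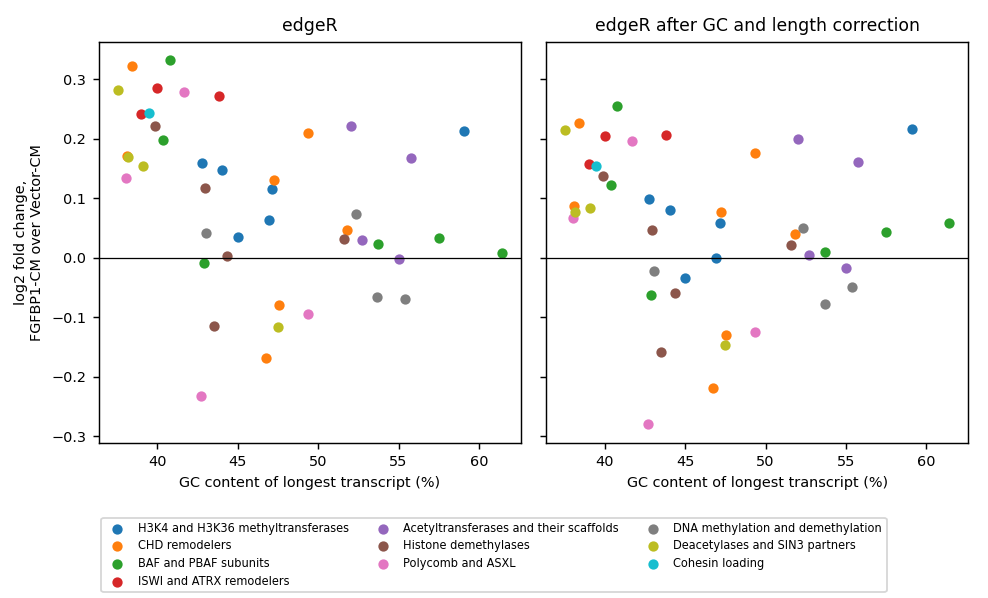
Log2 fold change (FGFBP1-CM over Vector-CM) of the 44 tested genes against the GC content of their longest transcript in percent, before (left) and after (right) the correction for GC content and length; each point is a gene, colored by role. Spearman's rho was -0.50 before and -0.33 after the correction.

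The relation to GC content differed between single libraries. Measured against the mean of the Vector-CM libraries, the median log2 level of the 44 genes was 0.04, -0.07 and 0.02 in Vector-CM replicates 1, 2 and 3, and 0.09, 0.10 and 0.10 in the FGFBP1-CM replicates. Vector-CM replicate 2, the library with the fewest counts, held the lowest value of 24 of the 44 genes. In that library the deviation of a gene from its mean over the 6 libraries had a Spearman's rho of 0.71 with GC content over the 44 genes, and in FGFBP1-CM replicate 3 it was -0.76. In the other libraries it was -0.225 and 0.341 (Vector-CM replicates 1 and 3) and -0.004 and -0.354 (FGFBP1-CM replicates 1 and 2), and over all genes tested it ran from -0.362 (FGFBP1-CM replicate 3) to 0.294 (Vector-CM replicate 2). The part of GC content in the higher level of the chromatin genes was not tested beyond the corrected values given above.

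**Figure D5:**
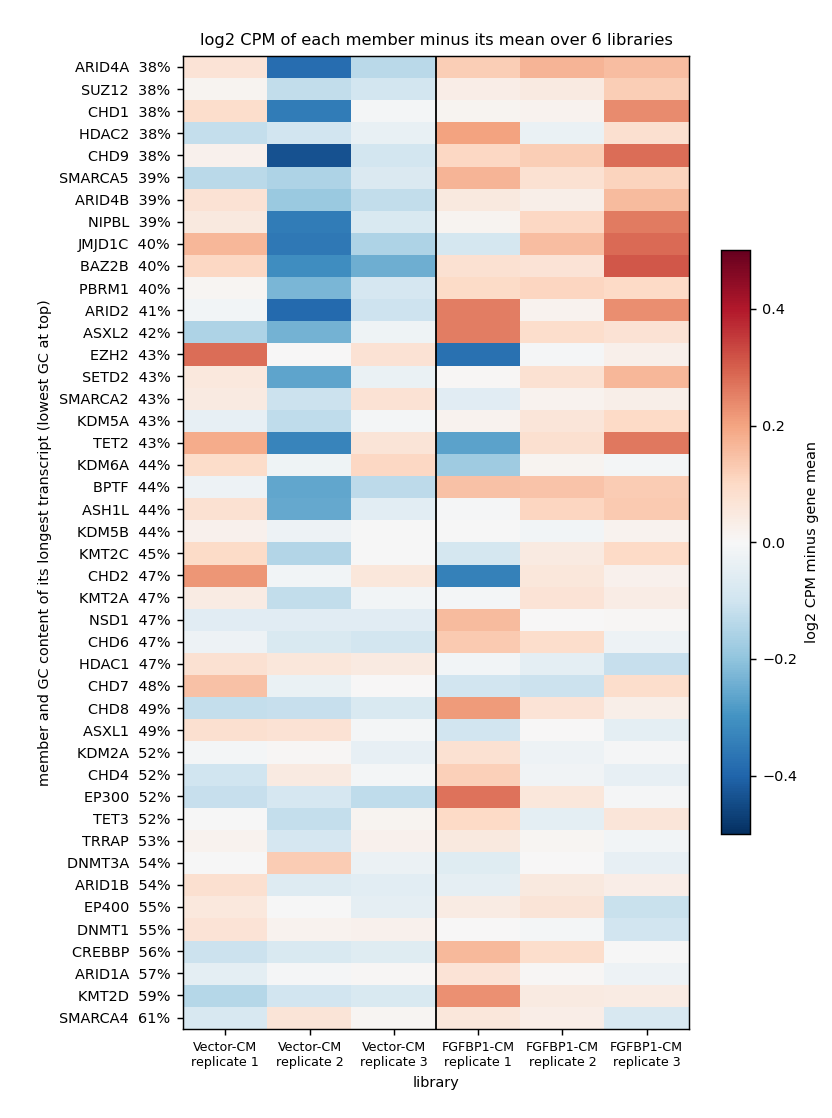
Heat map of the log2 CPM of the 44 tested genes minus the gene's mean over the 6 libraries, with genes ordered from the lowest GC content (top) to the highest (bottom) and libraries in columns. Vector-CM replicate 2 is blue in most upper rows and FGFBP1-CM replicate 3 is red in most of them, and the lower rows are paler in both.

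A further 115 chromatin genes of the same and neighbouring complexes were listed for comparison, and all 115 were tested. None passed an adjusted p of 0.05 in edgeR, 13 were higher (11.3%) and 11 lower (9.57%) at an unadjusted p, and the median log2 fold change was 0.01 (-0.0075 after GC and length correction), close to the values over all genes. Unlike the 44 genes (44.7%), they had a median GC content above that of all genes with a value (50.7% against 47.7%). The median length of their longest transcripts was 4865 bp. The highest log2 fold changes were those of SETD1B, an H3K4 methyltransferase (0.44 ± 0.14, adjusted p = 0.104), SUV39H2, an H3K9 methyltransferase (0.40 ± 0.10, adjusted p = 0.0767), BMI1, a subunit of Polycomb repressive complex 1 (0.39 ± 0.09, adjusted p = 0.0568), MEN1, the menin subunit of the KMT2A complex (0.34 ± 0.10, adjusted p = 0.105), and BAZ1A, a partner of SMARCA5 (0.29 ± 0.09, adjusted p = 0.0973).

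The lowest were those of the de novo methyltransferase DNMT3B (-0.57 ± 0.12, edgeR adjusted p = 0.0568), KDM7A, a demethylase of H3K9 and H3K27 (-0.27 ± 0.09, adjusted p = 0.133), MTA1, a NuRD subunit (-0.23 ± 0.08, adjusted p = 0.130), HDAC6, a mostly cytoplasmic deacetylase (-0.21 ± 0.07, adjusted p = 0.135), and DOT1L, the H3K79 methyltransferase (-0.19 ± 0.09, adjusted p = 0.242). DNMT3B was at 48.8, 42.0 and 40.4 CPM with Vector-CM and at 23.5, 33.1 and 31.9 CPM with FGFBP1-CM, so that every FGFBP1-CM library was below every Vector-CM library. Its difference was larger than that of any of the 44 genes, and its adjusted p ranged from 4.8e-07 to 0.243 over the alternatives. BMI1 was at 25.4, 26 and 27 CPM against 36.2, 30.8 and 35.8 CPM, also without overlap, and 23.3% of its exon bases overlap another gene on the same strand. SETD1B was at 16.7, 15.8 and 16.5 CPM against 27.7, 20.1 and 18.5 CPM, and SUV39H2 at 15.5, 14.3 and 13.9 CPM against 21.0, 19.0 and 17.5 CPM. Without FGFBP1-CM replicate 1, the highest library of both SETD1B and MEN1, their log2 fold changes were 0.24 and 0.19, and that of SETD1B was then below those of SUV39H2 (0.33) and BMI1 (0.35). DOT1L was at -0.11 without Vector-CM replicate 1.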

How the data were processed

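RNA was measured in 6 libraries of LX-2 cells, grouped by their labels. The extract protocol names the NEBNext Ultra II kit after depletion of ribosomal RNA, while the study's methods also describe poly(A) selection, and strandedness is not given in the sources used here. Per the submitters' processing notes, reads were aligned with HISAT2 2.0.5 and assigned with featureCounts 1.5.0-p3. The authors deposited the raw count of every gene, not normalized, and beside it the FPKM, which divides the count by gene length and library total. The notes list the build hg18, but of 36572 genes 59.5% had an FPKM length within 1 bp of GENCODE 29 (GRCh38), whose coordinates are given here and need not be those used for counting.

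Counts were tested with edgeR 4.0.16 in R 4.3.3 (filterByExpr, TMM scaling, quasi-likelihood F-test), and p-values were adjusted by Benjamini-Hochberg over 16707 genes. CPM values use the TMM-scaled library size. The SE is the log2 fold change divided by the square root of F. GC content and length are those of the longest GENCODE 29 transcript, and the correction removed each library's loess trend (span 0.3). Scripts were tested on simulated data. Between replicates of a group, counts differed by more than sampling noise (chi-square per degree of freedom of 2.88 to 10.2), so each library counted as 1 sample. The 45 genes, the roles and the 115 further genes were chosen with earlier results of these data known. Values are given per library for the 10 genes with the lowest p, the 3 highest and 3 lowest log2 fold changes, the highest and lowest FPKM and 8 pairs, and of the further genes the 5 highest and 5 lowest are named. CREBBP, NSD1, DNMT1, KDM5A, HDAC2, NIPBL, JMJD1C, BAZ2A, BRD7 and PHF10 were described further after their values were seen. The alternatives changed the scaling (RLE, or library size only), the filter (a mean CPM of 1 or more, or merely 1 count), the tool (the Wald test in DESeq2 1.42.0, or limma 3.58.1 on log2 FPKM with 1 or 0.1 added), the sequence correction or the replicate number as a block, or left out each library.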

Additional observations from a re-analysis of the deposited data

How the results depend on the processing

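The count of all genes at an adjusted p under 0.05 (20 in edgeR) was 38 with RLE scaling (24 higher and 14 lower, against 9 and 11), 1382 with no filter beyond 1 count, 11 with a mean of at least 1 CPM, 616 with DESeq2, 1 with limma on FPKM at either pseudocount (1 or 0.1), 129 with GC and length correction, and 4 to 883 when 1 library was left out. Same-numbered libraries of the groups had correlations of -0.137, -0.0178 and 0.162 over 15033 genes, and libraries of unlike number -0.246 to 0.211. Whether a shared number marks a shared batch was not tested. With the replicate number as a block the count of all genes was 90, or 60 with GC and length correction as well. The count of the 44 chromatin genes then remained 0. That count was 8 with no filter, 4 with DESeq2 and 0 to 2 with 1 library left out, and the count at an unadjusted p (15) was 9 to 19 with 1 library left out. With library size only, 21 were higher and 0 lower at an unadjusted p, against 14.1% and 7.70% of all genes. The median log2 fold change of the 44 genes (0.1161) was 0.0582 with GC and length correction, 0.0583 with the block as well, and 0.0683 to 0.1397 with 1 library left out, lowest without Vector-CM replicate 2. For the 115 further genes, the count at an adjusted p (0) was 6 with no filter, 5 higher and 1 lower (2.19% and 1.44% of all genes). It was 3 with DESeq2, 2 higher and 1 lower (2.00% and 1.69% of all genes). With GC and length correction it was 2 (DNMT3B and KDM7A, both lower, as were 0.407% of all genes), and with 1 library left out 0 to 4. The median of the 115 genes (0.0113) was 0.0455 with library size only, and 0.0433 and 0.0446 with limma at the larger and the smaller pseudocount. It was -0.0149 to 0.0362 with 1 library left out. Log2 fold changes near 0 changed sign. GC and length correction gave -0.0013 for KMT2A, -0.0338 for KMT2C, -0.0591 for KDM5B, -0.0233 for TET2 and -0.0378 for BRD7, and with the block as well -0.001, -0.0344, -0.0592, -0.0262 and -0.0372. SMARCA2 was 0.0254 with library size only, 0.0035 with no filter, and 0.0201 and 0.0275 with limma, and EP400 was 0.0305, 0.0093, 0.0265 and 0.0289. With 1 library left out the values ran from -0.0266 to 0.0963 for KMT2C, -0.0023 to 0.0801 for CHD4, -0.0031 to 0.0737 for ARID1B, -0.0607 to 0.025 for SMARCA2, -0.0306 to 0.0467 for SMARCA4, -0.0354 to 0.0489 for EP400, -0.004 to 0.0479 for TRRAP, -0.009 to 0.016 for KDM5B, -0.0907 to 0.1791 for TET2 and -0.0169 to 0.0445 for BRD7. The cause of these shifts was not tested. The alternatives for the pair ratios and for the 13 further genes named were chosen after seeing the data. The 3 libraries a group gave SEs of 0.059 to 0.147 for the 44 genes, and edgeR made few calls over all genes.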

Other observations

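Partners of ATRX, chosen after the values were seen, were well above it. DAXX, which acts with ATRX in placing H3.3, was at 97.7 to 108 CPM over the 6 libraries (log2 fold change -0.03, edgeR adjusted p = 0.843). The H3.3 gene H3F3A was at 48.4, 52.2 and 51.2 CPM with Vector-CM and at 42.9, 42.4 and 44.5 CPM with FGFBP1-CM. It was lower without overlap (log2 fold change -0.22, edgeR adjusted p = 0.102). The other H3.3 gene, H3F3B, was at 875 to 989 CPM (log2 fold change -0.06, edgeR adjusted p = 0.626). HIRA, which places H3.3 at active genes, was at 5.08 to 8.86 CPM, and its highest library was FGFBP1-CM replicate 1. TERT, the catalytic subunit of telomerase, had 0 to 2 counts in each library.

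Among the 12 groups of the 115 further genes, 3 are given here, chosen after their values were seen and not tested against each other. Of 9 lysine methyltransferases outside H3K4 and H3K36, 8 had a negative log2 fold change (median -0.09, -0.07 after GC and length correction), with 0 lower and 1 higher (SUV39H2) at an unadjusted edgeR p. Of 10 genes of cohesin and its partners, 8 had a positive one (median 0.16, 0.08 corrected), with 3 higher and 0 lower at an unadjusted edgeR p, and NIPBL, which loads cohesin, had 0.24. Of 8 NuRD genes, 3 had a positive value (median -0.08), and 2 were lower and 0 higher at an unadjusted edgeR p. At the same p, 11.1% of all genes tested were higher and 10.7% lower.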
